A study of Mus musculus with 41 samples.

Results

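The genes described here encode subunits of respiratory complexes II, III, IV and V, and cytochrome c, in mouse epidermal stem cells. They were taken as every platform gene symbol that begins with Uqcr, Atp5 or Cox4 to Cox8, together with the 4 genes Sdha, Sdhb, Sdhc and Sdhd, and Cyc1 and Cycs. Pseudogenes and probe sets with several genes were left out, and each gene is read from its brightest probe set. This gave 47 of the 17097 genes measured: 4 of complex II, 8 of complex III, 1 for cytochrome c, 17 of complex IV and 17 of complex V. The rule itself reads gene names, and the group was chosen with earlier results of these data known.

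RNA of epidermal stem cells was measured on 41 Affymetrix arrays, 20 from the control diet and 21 from the high fat diet. All mice were wild type C57B6/J females, 15 weeks old, which had eaten their diet freely for 7 weeks from the age of 8 weeks. Collections ran every 4 h from ZT0 to ZT20. In that order the control diet gave 4, 3, 2, 3, 4 and 4 arrays and the high fat diet 3, 4, 2, 4, 4 and 4. Zeitgeber time counts hours in the light cycle of the animal house. The design text assigns each collection day to 1 time point, with both diets on it, so differences between time points and between days cannot be told apart. The labels number replicates without saying that each is a separate mouse, and p-values measure the spread between these arrays.

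Complex II, succinate dehydrogenase, passes electrons from succinate to ubiquinone, and complex III passes them from ubiquinone to cytochrome c. Cytochrome c carries them to complex IV, cytochrome c oxidase, which reduces oxygen. Complexes III and IV pump protons, and complex V, the ATP synthase, uses the proton gradient to make ATP. All the subunits described here are encoded in the nucleus and imported into mitochondria, and the mitochondrial genome encodes further subunits of complexes III, IV and V.

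The promoters of 1 gene per complex are shown because these genes rose together at ZT12, as described further on. Each is the gene of its complex with the smallest p at ZT12 among those with an entry in the promoter table and outside the dimmest 40% of genes. The sequences run from 250 bases before to 50 bases after the start, in the gene's orientation, as given by RefSeq for GRCm38.p6. Capitals mark matches, on either strand, to CCGGAAG (bound by ETS factors such as GABP), GCGCATGCG (NRF1), AAGGTCA (an ERR element), GCCATNTT (YY1), CACGTG (an E-box) and TTATGTAA (a D-box).
Sdhb: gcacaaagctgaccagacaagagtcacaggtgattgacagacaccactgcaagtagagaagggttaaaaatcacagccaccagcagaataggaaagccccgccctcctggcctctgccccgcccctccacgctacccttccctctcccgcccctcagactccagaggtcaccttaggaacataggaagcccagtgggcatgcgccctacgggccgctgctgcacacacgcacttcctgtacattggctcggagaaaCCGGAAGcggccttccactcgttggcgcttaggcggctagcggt
Uqcr11: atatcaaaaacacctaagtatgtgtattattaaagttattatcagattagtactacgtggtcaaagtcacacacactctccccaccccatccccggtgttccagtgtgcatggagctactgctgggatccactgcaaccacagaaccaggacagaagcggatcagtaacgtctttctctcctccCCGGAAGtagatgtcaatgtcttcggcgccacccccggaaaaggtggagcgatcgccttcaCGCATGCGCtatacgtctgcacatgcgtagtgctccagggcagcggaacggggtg
Cycs: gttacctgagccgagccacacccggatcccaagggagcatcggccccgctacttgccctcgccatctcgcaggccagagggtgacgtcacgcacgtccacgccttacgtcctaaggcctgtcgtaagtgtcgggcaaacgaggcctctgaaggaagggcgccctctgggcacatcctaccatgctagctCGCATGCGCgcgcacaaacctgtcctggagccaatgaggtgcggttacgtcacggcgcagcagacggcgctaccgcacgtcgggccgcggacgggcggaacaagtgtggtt
Cox5a: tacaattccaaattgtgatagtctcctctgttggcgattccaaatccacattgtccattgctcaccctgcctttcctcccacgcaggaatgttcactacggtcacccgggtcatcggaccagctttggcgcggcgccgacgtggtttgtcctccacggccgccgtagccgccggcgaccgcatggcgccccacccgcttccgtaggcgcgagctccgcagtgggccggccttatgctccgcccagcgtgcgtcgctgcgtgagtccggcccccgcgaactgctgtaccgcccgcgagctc
Atp5l: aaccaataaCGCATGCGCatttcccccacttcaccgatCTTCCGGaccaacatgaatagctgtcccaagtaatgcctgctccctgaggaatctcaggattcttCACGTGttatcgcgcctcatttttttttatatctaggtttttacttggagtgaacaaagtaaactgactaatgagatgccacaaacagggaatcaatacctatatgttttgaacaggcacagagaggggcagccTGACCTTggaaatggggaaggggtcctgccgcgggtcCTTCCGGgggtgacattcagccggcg
Sdhb lies on the plus strand (chr4:140961021-140961320), Uqcr11 on the minus strand (chr10:80406772-80407071) and Cycs on the minus strand (chr6:50566520-50566819). Cox5a (chr9:57520982-57521281, plus strand) and Atp5l (chr9:44920693-44920992, minus strand) are both on chromosome 9. Counted from the start, the ETS match of Sdhb begins at base 7, and the NRF1 match of Cycs at base -61. Uqcr11 has an ETS match at base -66 and an NRF1 match at base -5. Atp5l holds 4 of the 6 motifs, with the NRF1 match at base -241, ETS matches at -212 and 25, the E-box at -147 and the ERR element at -13, and Cox5a holds none.

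Of the 47 genes, 35 had an entry in that table. Of these 35 promoters, 7 (20%) held the NRF1 letters, against 1.81% of all 27025 promoters, and 11 (31.4%) held the ETS letters, against 9.12%. The ERR element was in 5 (14.3%, against 4.66% of all) and the E-box in 4 (11.4%, against 7.24%). The YY1 letters were in 3 (8.57%, against 6.23%) and the D-box, the element of the clock output factors, in 0 of 35 (0.955% of all). The NRF1 letters stood before Cycs, Uqcr11, Uqcrc1, Cox6a1, Atp5g2, Atp5k and Atp5l. A match describes these letters only, and no binding was measured.

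The genes were among the brightest on the arrays. Their median level over all arrays, 10.27 on the log2 scale of the deposited values, lay at percentile 93.5 of all genes, and 30 of 47 were in the brightest 10%. The 4 that fell in the dimmest 40% were Sdhd (6.09) and the tissue isoforms Cox6b2 (5.73), Cox7a1 (5.43) and Cox7b2 (4.97). Probe sets differ in affinity, so these levels place a gene on the array and do not compare transcript numbers between genes.

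Markers of cell types were read as well, and levels of different probe sets cannot verify the label of the cells. The mean log2 value of 10 basal keratinocyte genes, such as the keratins Krt5 and Krt14, ran from 10.55 to 11.06 over the 41 arrays, and that of 8 suprabasal genes from 9.14 to 10.08. The means of 6 fibroblast, 4 endothelial, 5 melanocyte, 6 muscle and 4 fat cell genes stayed between 5.52 and 6.50. The mean of 7 leukocyte and Langerhans cell genes ran from 6.35 to 7.45. In bulk RNA, fewer cells of a type and less RNA per cell cannot be told apart.

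Over the day the genes followed different courses in the 2 diets. On the control diet the mean over all 47 genes was 9.84 at ZT0, 9.77 at ZT4, 9.60 at ZT8, 9.73 at ZT12, 9.73 at ZT16 and 9.89 at ZT20 (log2). On the high fat diet it was 9.83, 9.71, 9.87, 10.05, 9.67 and 9.72 at the same times. All 4 high fat arrays of ZT12 (10.02 to 10.11) lay above each of the other 37 arrays, which reached 9.95. The lowest array was control ZT8 replicate 2 (9.51), and the other control ZT8 array (9.68) lay among other low arrays of several groups. The median range between a gene's highest and lowest group mean was 0.31 on the control diet, close to the 0.31 of all genes, and 0.42 on the high fat diet, against 0.29 of all genes.

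**Figure D1:**
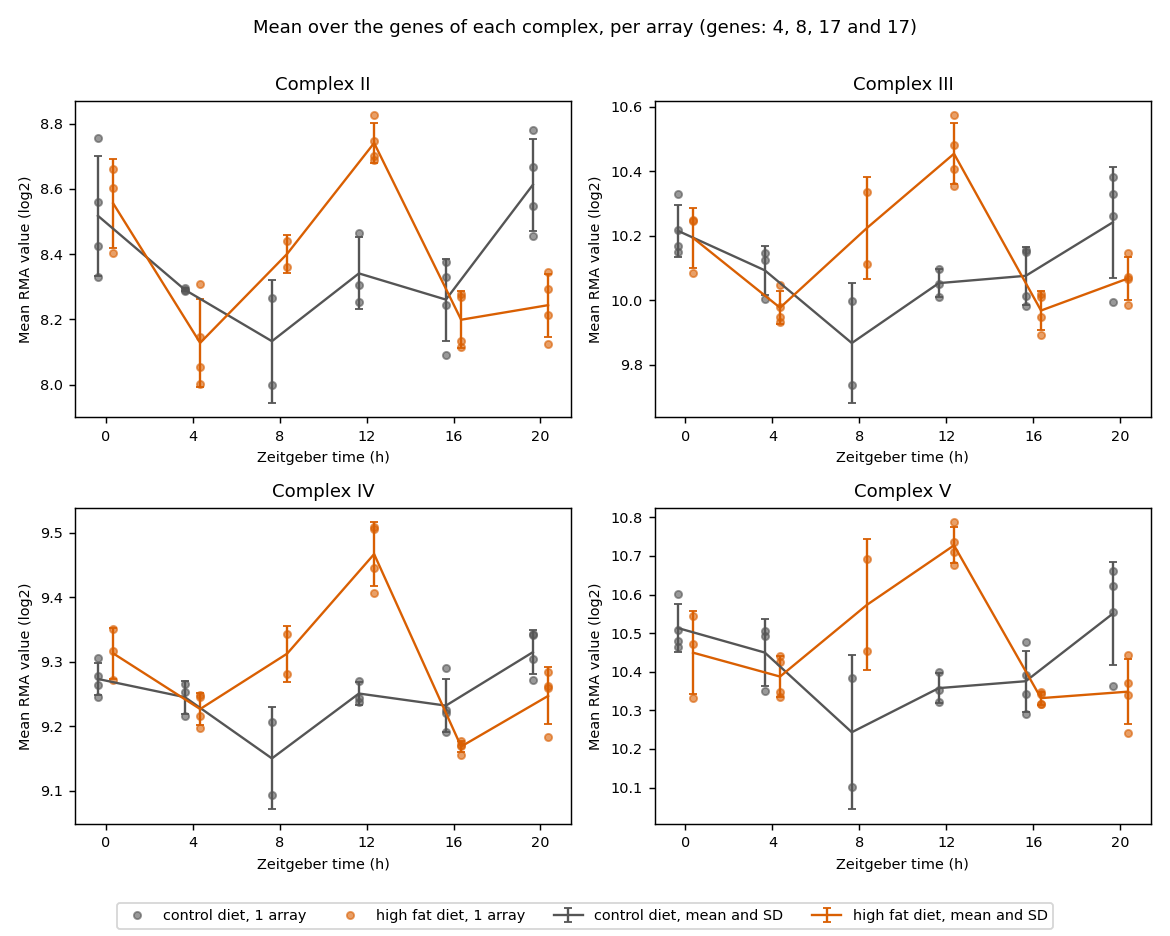
Mean log2 value over the genes of complexes II, III, IV and V (4, 8, 17 and 17 genes) against zeitgeber time in hours, where each point is 1 array and lines with bars are group means with their SD. In all 4 complexes the high fat arrays (orange) are highest in mean at ZT12 and the control arrays (grey) have their lowest mean at ZT8.

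Counted gene by gene, 34 of 47 had their highest high fat mean at ZT12, which was the highest time for 31.1% of all genes. On the control diet, 21 of 47 were highest at ZT20 and 14 at ZT0, against 13.9% and 17.8% of all genes, and 31 of 47 were lowest at ZT8, against 36.0% of all genes. Across all 12 groups, 32 of the 47 genes had their highest mean in the high fat group of ZT12 (22.4% of all genes).

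Below, a gene said to rise or fall at a time point was higher or lower there on the high fat diet than on the control diet. The words do not describe its course over the day. The diet difference was largest at ZT12. There 31 of 47 genes had higher levels under high fat feeding and 0 had lower levels (limma with Benjamini-Hochberg adjustment over all 17097 genes, threshold 0.05), against 18% of all genes called in either direction and 13.6% called higher. The difference was positive for 45 of 47, with a median of 0.29 (log2) against 0.05 over all genes. Complex III had 7 of 8 genes called, complex V 14 of 17, complex IV 7 of 17, complex II 2 of 4, and Cycs was called. In 35 of 47 genes every high fat array lay above every control array at ZT12, as it did in 20.6% of all genes, and this held for all 17 genes of complex V. In 1 gene, Sdha, every high fat array lay below every control array (7.64% of all genes).

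**Figure D2:**
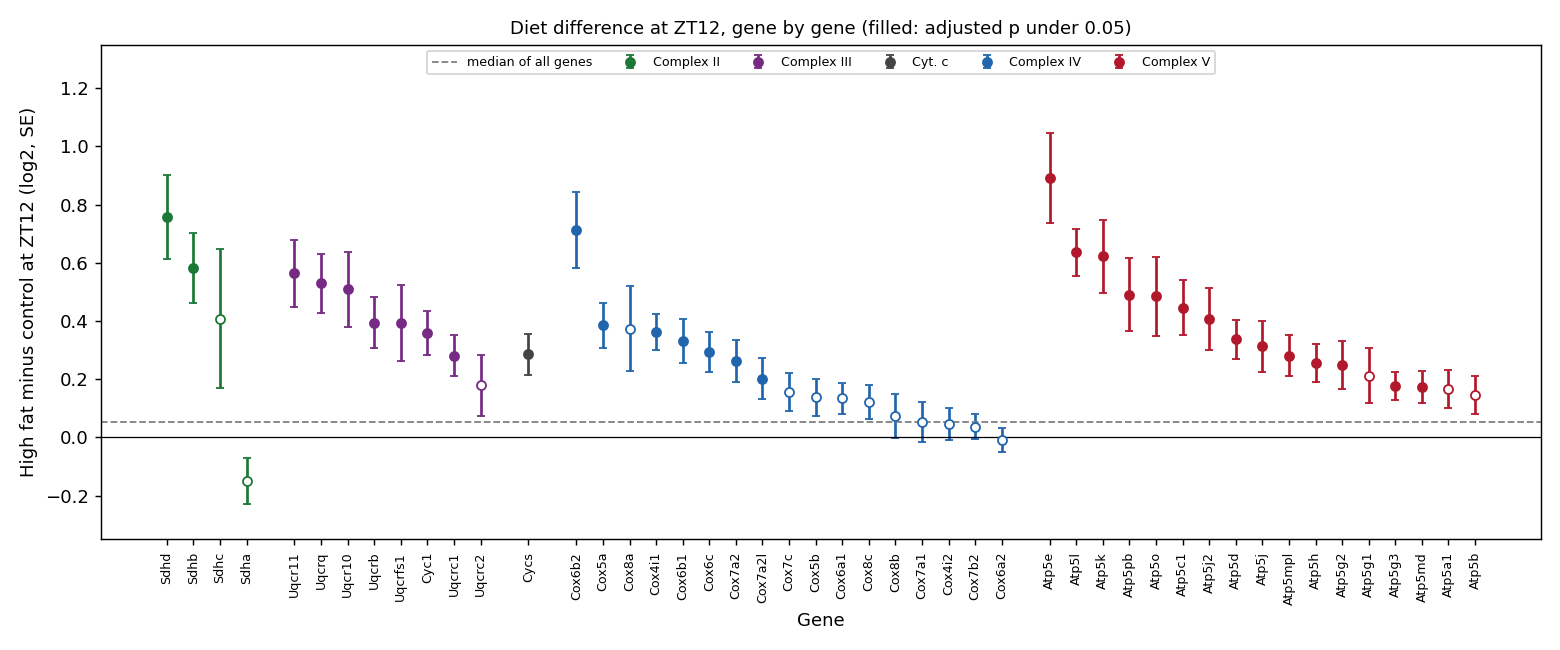
High fat minus control at ZT12 for each of the 47 genes (log2, y axis, bars are SE), grouped by complex and sorted within it, with filled points for adjusted p under 0.05 and a dashed line at the median of all genes (0.05). Differences run from -0.15 (Sdha) to 0.89 (Atp5e), and Sdha and Cox6a2 are the points below 0.

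The calls at ZT12 did not rest on 1 array. Leaving out any 1 of the 41 arrays gave 24 to 32 calls, with 24 without control ZT12 replicate 2, and the 7 arrays of ZT12 fitted alone gave 24. The number of calls depended on the scaling of the arrays. Subtracting a median moves every gene of an array by the same amount. Of all genes called at ZT12, 75.4% were higher as deposited and 51% with the median of the tested genes subtracted from each array, a shift of 0.062 (log2) at ZT12. In that second setting 25 of the 47 genes were higher and 0 lower, with a median of 0.23, against 7.72% of all genes called higher. With the median of all probe sets subtracted instead, 33 were higher and 0 lower, with a median of 0.31, against 16.7% of all genes called higher.

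Complex II consists of the flavoprotein Sdha, which oxidises succinate, the iron-sulfur protein Sdhb and the membrane anchors Sdhc and Sdhd. At ZT12 Sdhb, whose promoter is shown above, was 9.43, 9.27 and 9.40 in the control arrays and 10.15, 9.95, 9.84 and 9.85 in the high fat arrays. The groups did not overlap, and the difference was 0.58 ± 0.12 (SE, log2), a fold of 1.5 (adjusted p = 0.0013, limma). Sdhd was 6.08, 5.98 and 6.21 on the control diet and 6.85, 6.67, 6.94 and 6.94 on the high fat diet, a difference of 0.76 ± 0.14 (adjusted p = 0.00059), at a probe set in the dimmest 40%. Sdhc differed by 0.41 ± 0.24 and was not called, with a 95% interval from -0.08 to 0.89. Sdha went the other way by its estimate, -0.15 ± 0.08, and was not called (interval -0.31 to 0.01). It was 10.19, 10.34 and 10.34 in the control arrays and 10.06, 10.18, 10.12 and 10.19 in the high fat arrays, and the groups met without overlapping. Sdha has 4 probe sets, and these values are of the brightest only.

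Among the 4 small subunits of complex III, all 4 rose at ZT12. Uqcrq was 10.84, 10.75 and 10.79 in the control arrays and 11.43, 11.28, 11.25 and 11.33 in the high fat arrays, a difference of 0.53 ± 0.10 (adjusted p = 0.00063, limma). Uqcr11 was 10.22, 10.32 and 10.46 against 11.03, 10.83, 10.74 and 10.98, a difference of 0.56 ± 0.11 (adjusted p = 0.0011). Neither pair of groups overlapped. Uqcr10 and Uqcrb differed by 0.51 ± 0.13 and 0.39 ± 0.09. Both redox subunits rose as well, Cyc1, the cytochrome c1, by 0.36 ± 0.08 and Uqcrfs1, the Rieske iron-sulfur protein, by 0.39 ± 0.13 (adjusted p = 0.0017 and 0.033). Of the core pair on the matrix side, Uqcrc1 rose by 0.28 ± 0.07, and Uqcrc2 differed by 0.18 ± 0.11 and was not called (interval -0.04 to 0.39).

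The probe set decides Uqcrq. Its other 3 probe sets are dim (means 5.12 to 6.65 against 10.94), and they gave -0.92, 0.086 and 0.17 at ZT12, so that the mean over the 4 probe sets was -0.032 (adjusted p = 0.79). Uqcr10 kept its direction in both other probe sets (0.41 and 0.083).

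Cycs encodes the cytochrome c of somatic cells, which also triggers caspases when it leaves mitochondria. At ZT12 it was 10.34, 10.26 and 10.32 on the control diet and 10.58, 10.43, 10.76 and 10.58 on the high fat diet, with no overlap. The difference was 0.29 ± 0.07 (fold 1.22, adjusted p = 0.0048, limma). A second bright probe set gave 0.21, and the dimmest, with a mean of 4.67, gave -0.042.

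In complex IV the general isoforms and the isoforms known from other tissues differed in their counts. Of 9 general isoforms 5 rose at ZT12, with a median difference of 0.29, and of 7 isoforms of lung, heart, muscle or testis 1 rose, with a median of 0.05. The tissue isoforms are dimmer, with mean levels of 4.97 to 7.79 against 9.51 to 11.95. A rise of a gene with little RNA here could be missed, so the counts do not show that the 2 kinds respond differently. Cox4i1, the general form of the regulatory subunit 4, was 11.34, 11.35 and 11.48 in the control arrays and 11.79, 11.72, 11.67 and 11.83 in the high fat arrays. Its difference was 0.36 ± 0.06 (fold 1.29, adjusted p = 0.00022, limma), without overlap. Cox5a, Cox6b1, Cox6c and Cox7a2 rose by 0.38 ± 0.08, 0.33 ± 0.08, 0.29 ± 0.07 and 0.26 ± 0.07. The other general isoforms were positive and not called: Cox8a at 0.37 ± 0.15, Cox7c at 0.16 ± 0.07, Cox5b at 0.14 ± 0.06 and Cox6a1, the brightest of the 47 genes, at 0.13 ± 0.05 (interval 0.02 to 0.24). Cox7a2l, a factor that joins complexes III and IV into supercomplexes, rose by 0.20 ± 0.07 (adjusted p = 0.045).

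The isoform that rose was Cox6b2, known from testis. It was 5.94, 5.69 and 5.49 on the control diet and 6.83, 6.24, 6.56 and 6.07 on the high fat diet, a difference of 0.71 ± 0.13 (adjusted p = 0.00038, limma) at a level where 26.0% of genes are dimmer. Cox4i2 (lung), Cox6a2, Cox7a1 and Cox8b (heart and muscle) and Cox7b2 and Cox8c (testis) differed by -0.01 to 0.12, and none was called. Cox6a2 had the smallest difference of the complex, with 7.65, 7.66 and 7.66 on the control diet and 7.58, 7.77, 7.64 and 7.61 on the high fat diet (interval -0.09 to 0.08). Those 2 groups overlapped.

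Complex V is described by the parts of the enzyme. All 5 small membrane subunits rose at ZT12, as did all 4 genes of the peripheral stalk, 2 of the 3 genes of the c ring and 3 of the 5 of the catalytic head. Atp5l, subunit g, had the smallest p of the 47 genes. It was 10.50, 10.41 and 10.59 in the control arrays and 11.27, 11.02, 11.07 and 11.20 in the high fat arrays, a difference of 0.64 ± 0.08 and a fold of 1.55 (adjusted p = 1.3e-05, limma). The high fat arrays were all above the control arrays, by more than the range within either group.

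Next to Atp5l in the membrane, Atp5k (subunit e) was 9.70, 9.70 and 9.84 against 10.31, 10.33, 10.48 and 10.37, a difference of 0.62 ± 0.13 (adjusted p = 0.0010, limma). Atp5j2, Atp5mpl and Atp5md rose by 0.41 ± 0.11, 0.28 ± 0.07 and 0.17 ± 0.06. In the peripheral stalk, which holds the head against rotation, Atp5pb rose by 0.49 ± 0.13, Atp5o by 0.48 ± 0.14, Atp5j by 0.31 ± 0.09 and Atp5h by 0.25 ± 0.07.

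In the catalytic head the subunits of the central stalk rose and the α and β subunits, which carry the catalytic sites, were not called. Atp5e (ε) had the largest difference of all 47 genes, with 8.93, 8.87 and 9.12 on the control diet and 9.98, 9.93, 9.63 and 9.91 on the high fat diet, or 0.89 ± 0.16 (fold 1.86, adjusted p = 0.00025, limma). Atp5d (δ) was 11.05, 11.00 and 11.02 against 11.34, 11.40, 11.41 and 11.30, a difference of 0.34 ± 0.07 (adjusted p = 0.0010). Atp5c1 (γ) rose by 0.45 ± 0.09 in its brightest probe set, while its other probe set, with a mean of 8.55, gave -0.74 and the mean of both -0.15 (adjusted p = 0.44). Atp5a1 (α) differed by 0.17 ± 0.07 (interval 0.03 to 0.30) and Atp5b (β) by 0.14 ± 0.07 (interval 0.01 to 0.28). Atp5b was 10.74, 10.76 and 10.84 against 10.99, 10.91, 10.90 and 10.90, so its arrays did not overlap either.

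The c ring, which turns with the proton flow, is made from 1 protein encoded by 3 genes. Atp5g3, the brightest of them, was 11.35, 11.41 and 11.45 on the control diet and 11.59, 11.58, 11.56 and 11.59 on the high fat diet, a difference of 0.18 ± 0.05 (adjusted p = 0.0091, limma). Atp5g2 was 9.94, 9.99 and 9.96 against 10.31, 10.04, 10.13 and 10.38, or 0.25 ± 0.08 (adjusted p = 0.036). Atp5g1 was 9.50, 9.43 and 9.48 against 9.67, 9.61, 9.86 and 9.59, a difference of 0.21 ± 0.09 that was not called (adjusted p = 0.11, interval 0.02 to 0.40).

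The difference at ZT12 was also set against the mean diet difference of the other 5 time points. It was larger for 27 genes and smaller for 0 (10.5% of all genes called in either direction, 7.7% higher), among them all but 4 of the 31 called at ZT12. Atp5l exceeded its other time points by 0.56 ± 0.09, Sdhd by 0.90 ± 0.16, Atp5e by 0.88 ± 0.17 and Uqcrb by 0.48 ± 0.10.

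Within the high fat diet, 38 of 47 genes were higher at ZT12 than at the mean of its other times and 0 were lower (27.8% of all genes called, 19.6% higher). These were 8 of 8 genes of complex III, 16 of 17 of complex V, 11 of 17 of complex IV, 2 of 4 of complex II, and Cycs. Atp5l was 11.14 ± 0.12 (SD, n = 4) at ZT12 and between 10.57 and 10.94 in its other high fat groups. Cox4i1 was 11.75 ± 0.07 against 11.34 to 11.49. Within the control diet only Atp5d was called at ZT12, lower by 0.20 ± 0.06 (5.31% of all genes called, 2.71% lower). It lost its call without any 1 of the 3 control ZT12 arrays, and 2 genes were called without high fat ZT4 replicate 3 or either high fat ZT8 array.

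**Figure D3:**
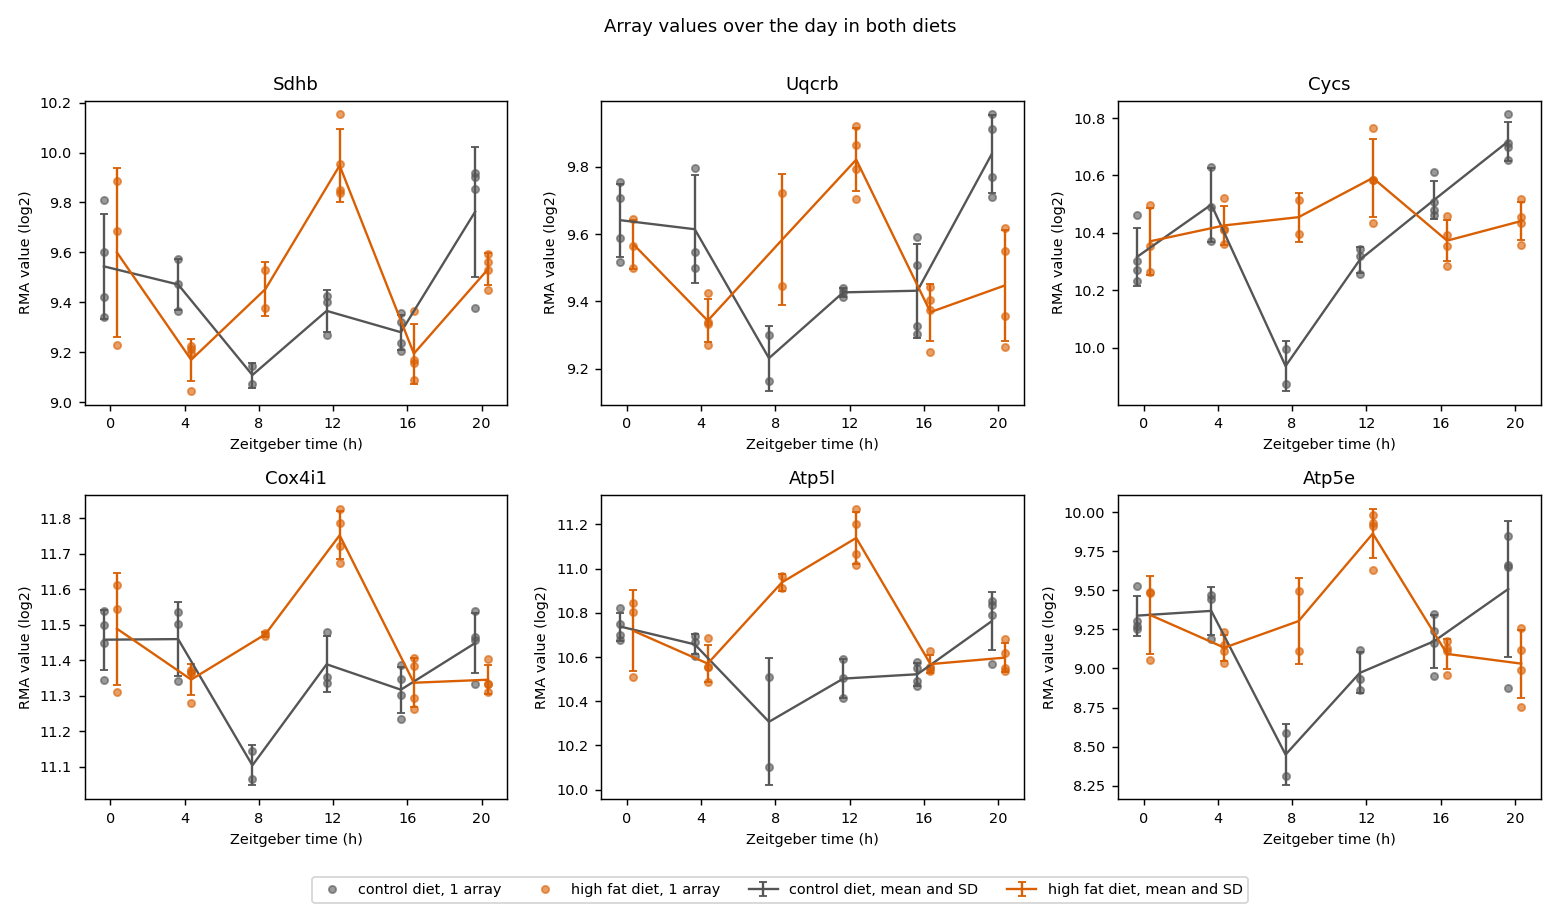
Log2 values of 6 genes, 1 or 2 per complex and Cycs, against zeitgeber time in hours, with 1 point per array and lines with bars for group means and SD (control diet grey, high fat diet orange). At ZT12 every high fat array of the 6 genes is above every control array, and at ZT8 the control mean is the lowest of the control means in each panel.

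At ZT8 each diet had 2 arrays. There 14 of 47 genes had higher levels under high fat feeding and 0 had lower levels, against 8.34% of all genes called and 5.42% called higher (limma). These were 6 genes of complex V, 5 of complex IV, 2 of complex III and Cycs, and 12 of the 14 were also called at ZT12. Atp5l was 10.51 and 10.10 on the control diet and 10.91 and 10.96 on the high fat diet, a difference of 0.63 ± 0.11 (adjusted p = 0.00036). Cycs was 10.00 and 9.87 against 10.39 and 10.52, a difference of 0.52 ± 0.09 (adjusted p = 0.00057). Cox8a, which was not called at ZT12, was 9.73 and 9.91 against 10.52 and 10.54, a difference of 0.71 ± 0.19 (adjusted p = 0.017).

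Cox4i1 was 11.14 and 11.06 on the control diet and 11.47 and 11.48 on the high fat diet, a difference of 0.37 ± 0.08 (adjusted p = 0.0042, limma). Uqcrq was 10.67 and 10.27 against 10.80 and 11.29, a difference of 0.58 ± 0.13 (adjusted p = 0.0062). Sdhb, first in complex II, was 9.14 and 9.07 against 9.38 and 9.53 and was not called (0.34 ± 0.16, interval 0.02 to 0.67). The other calls were Atp5e, Atp5j, Atp5j2, Atp5c1, Atp5g3, Uqcr10, Cox6c, Cox6a1 and Cox6b1, with differences from 0.21 to 0.85. The count fell to 2 without control ZT8 replicate 2 and to 4 without high fat ZT8 replicate 2, where the array that is left is assumed to vary like the other groups. The 4 arrays of ZT8 fitted alone gave 0 calls among all genes.

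Set against the mean of the other times within each diet, the ZT8 arrays differed mainly on the control diet. There 20 of 47 genes were lower and 0 higher (30.7% of all genes called, 18.4% lower): 7 of complex V, 5 of complex III, 5 of complex IV, 2 of complex II, and Cycs. Cycs was lower by 0.54 ± 0.07 (adjusted p = 4.1e-07, limma) and Atp5e by 0.82 ± 0.15. On the high fat diet 2 genes were higher at ZT8, Atp5mpl (0.31 ± 0.07) and Cox7c (0.27 ± 0.06), and Cox6b2 was lower (-0.47 ± 0.13). These calls are near the share of all genes (7.55% called, 3.46% higher and 4.09% lower). Without control ZT8 replicate 2 the control count was 7, of which 6 lower and 1 higher, and the high fat count was 9 and 0 without its replicates 1 and 2. The diet difference at ZT8 exceeded the mean of the other times in 13 genes (6.8% of all genes called, 4.19% higher), and in 1 and 3 without control and high fat ZT8 replicate 2.

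Markers of cell types moved in the same arrays. In the control ZT8 arrays 8 of 10 basal genes were lower and 1 higher than at the other times, 6 of 8 suprabasal genes were higher, and 4 of 7 leukocyte genes were lower and 1 higher. Of the other lists, Dcn, Pecam1, the muscle gene Myh4 and the fat cell gene Ucp1 were higher there. The fibroblast gene Col1a2 and the muscle genes Acta1 and Mb were lower, and no melanocyte gene was called. Of all genes 30.7% were called there and 18.4% called lower, the rest of the called genes being higher. The basal mean was 10.55 to 10.62 in those 2 arrays and 10.58 to 10.86 in the high fat arrays of ZT8, and the suprabasal mean 9.83 to 10.01 and 9.34 to 10.08. Between the diets at ZT8, Krt14 (0.37), the antigen presentation gene H2-Aa (0.79) and the T cell gene Cd3e (0.92) were higher on the high fat diet. The suprabasal genes Sbsn (-0.55), Dsg1a (-0.63) and Calm4 (-0.64), the fibroblast gene Dcn (-0.39) and the endothelial gene Pecam1 (-0.28) were lower. These were 1 of 10 basal, 2 of 7 leukocyte, 3 of 8 suprabasal, 1 of 6 fibroblast and 1 of 4 endothelial genes, and 0 melanocyte, muscle or fat cell genes were called, with 0, 1 and 1 at an unadjusted p under 0.05 (limma). Of all genes 8.34% were called between the diets at ZT8 and 5.42% called higher. At ZT12 the high fat arrays had 2 of 10 basal, 3 of 8 suprabasal and 4 of 7 leukocyte genes higher, 1 leukocyte and 2 of 5 melanocyte genes lower, 0 of 6 fibroblast and 0 of 4 endothelial genes called, 1 of 6 muscle genes higher and 1 of 4 fat cell genes lower. Of all genes 18% were called between the diets at ZT12 and 13.6% called higher. In the high fat arrays of ZT12 the leukocyte mean was 7.09 to 7.31, against 6.93 to 7.03 in the control arrays. The muscle mean was 6.27 to 6.50 against 6.24 to 6.26, and the basal mean 10.95 to 11.06 against 10.81 to 10.93. The suprabasal mean was 9.37 to 9.47 against 9.18 to 9.36, and the melanocyte mean was lower, 5.95 to 6.10 against 6.25 to 6.27. The fibroblast, endothelial and fat cell means overlapped between the diets. The part of these cell types in the differences of the respiratory genes was not tested.

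At the other 4 time points few genes differed. At ZT0 and ZT4 limma called 0 of 47 (0.854% and 0.386% of all genes), with 7 and 4 at an unadjusted p under 0.05. The shares of all genes are for the adjusted threshold only. At ZT16 Cox8a alone was called, 10.27, 10.49, 10.42 and 10.23 on the control diet against 9.84, 9.88, 9.86 and 9.49 on the high fat diet, lower by 0.58 ± 0.14 (adjusted p = 0.028; 1.24% of all genes called, 0.661% lower). It was not called without high fat ZT16 replicate 4, or without control ZT16 replicate 1, 2 or 3, 3 genes were called without control ZT16 replicate 4, and 2 without control ZT20 replicate 2 or either control ZT8 array. Cox8a thus was above the control diet at ZT8 and below it at ZT16.

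At ZT20 the direction was the reverse of ZT12 for most estimates: 43 of 47 were negative, with a median of -0.16 against 0.00 over all genes. Uqcrb and Cycs alone passed (0.702% of all genes called, 0.392% lower). At an unadjusted p under 0.05 there were 29 of 47. The share of all genes at that p is not given, so the count of 29 has no background beside it. Uqcrb, a subunit of complex III that faces the matrix, was 9.96, 9.71, 9.77 and 9.91 on the control diet and 9.55, 9.27, 9.36 and 9.62 on the high fat diet, lower by 0.39 ± 0.08 (adjusted p = 0.021, limma). Cycs was 10.81, 10.70, 10.65 and 10.71 against 10.46, 10.36, 10.43 and 10.52, lower by 0.28 ± 0.06 (adjusted p = 0.036). Neither pair overlapped. The count was 10 without control ZT20 replicate 2 and 0 or 1 without each other control ZT20 array or without high fat ZT20 replicate 1, 2 or 3. It was 5 with the median of the tested genes subtracted.

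Averaged over the 6 times, the diets differed in 3 of 47 genes, all higher on the high fat diet. That is near the share of all genes (7.59% called, 5.52% higher). Atp5l was higher by 0.17 ± 0.03, Uqcrc1 by 0.14 ± 0.03 and Cox4i1 by 0.09 ± 0.03 (adjusted p = 0.0029, 0.0073 and 0.025, limma). None of the 47 was called without ZT12. The count was 5 to 7 without control ZT8 replicate 1, control ZT20 replicate 1 or high fat ZT0 replicate 1, ZT8 replicate 1 or ZT20 replicate 2.

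**Figure D4:**
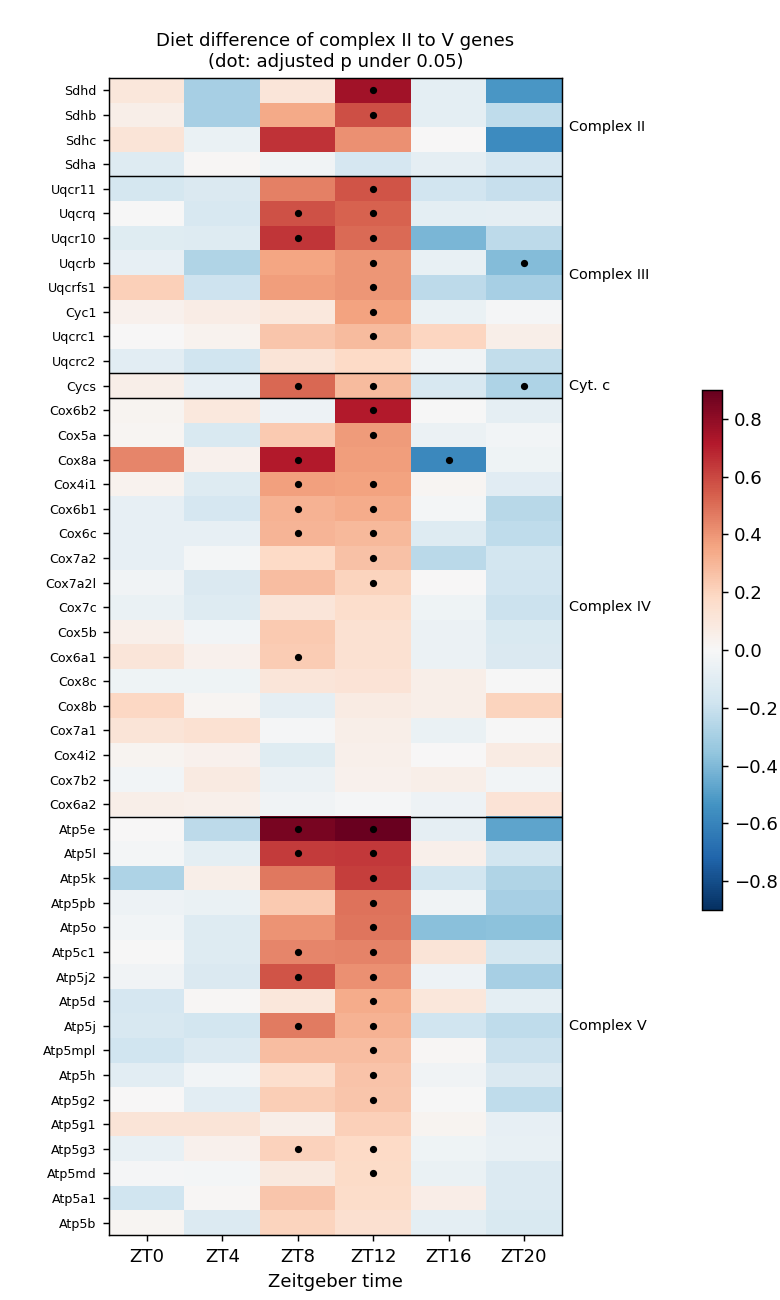
High fat minus control (log2, colour) for the 47 genes (rows, by complex) at 6 zeitgeber times (columns), with a dot where the adjusted p is under 0.05. The columns of ZT8 and ZT12 hold 14 and 31 dots, all on higher values, and the columns of ZT16 and ZT20 hold 1 and 2, on lower values.

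Whether the diet difference changed with time was tested directly. It did for 35 of 47 genes (19% of all genes, limma F test), in the order Atp5l (adjusted p = 1.8e-05), Cycs (5.3e-05), Uqcrb (0.000159), Atp5e (0.000165) and Cox4i1 (0.000361). Leaving out ZT12 left 14. Uqcrb had diet differences of 0.39 ± 0.09 at ZT12 and -0.39 ± 0.08 at ZT20, and Cycs of 0.29 ± 0.07 and -0.28 ± 0.06. Sdha, Atp5g1, Uqcrc1, Uqcrc2, Sdhc, Atp5md and 6 of the 7 tissue isoforms of complex IV were not called, with adjusted p from 0.056 to 0.73.

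Levels differed over the 6 times in 28 of 47 genes on the control diet and in 37 on the high fat diet, against 43.9% and 41.5% of all genes. Each of these tests is open to the collection day as said above. On the control diet Cycs had the smallest p (1.1e-07) and ran from 9.94 ± 0.09 (SD, n = 2) at ZT8 to 10.72 ± 0.07 (n = 4) at ZT20. On the high fat diet it stayed between 10.37 and 10.59 and was not called (adjusted p = 0.056). The largest range of all was that of Sdhd on the high fat diet, from 5.59 ± 0.10 (n = 4) at ZT4 to 6.85 ± 0.12 (n = 4) at ZT12.

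A 24 h cosine was fitted to each diet. It passed for 5 genes on the control diet (6.66% of all genes) and for 10 on the high fat diet (11.2%), with Atp5l in both. The 5 control genes peaked within 19.7 h to 22.4 h. The peak of Cycs was at 19.7 ± 0.70 h (SE) with an amplitude of 0.24 ± 0.05 (log2), Atp5g3 at 21.0 ± 0.79 h, Atp5e at 21.6 ± 0.90 h, Uqcrb at 22.0 ± 0.88 h and Atp5l at 22.4 ± 1.01 h. The 10 high fat genes peaked between 9.12 h and 12.5 h, with amplitudes from 0.14 to 0.30. They were Atp5mpl, Atp5d, Atp5k, Atp5l, Atp5g2 and Atp5c1 of complex V, Cox6c, Cox7c and Cox6b1 of complex IV, and Uqcrc1 of complex III.

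Atp5l peaked at 22.4 ± 1.01 h on the control diet and at 10.3 ± 0.77 h on the high fat diet. The cosines of the diets differed in 19 genes (3.58% of all genes), 12 of them in complex V, led by Atp5l, Atp5k, Atp5d, Atp5mpl and Atp5e (adjusted p = 0.0019, 0.0020, 0.0048, 0.0059 and 0.0079, limma). In these 19 the fitted control peak lay between 18 h and 2 h and the high fat peak between 6 h and 14 h, and 5 of the 19 passed on the control diet and 7 on the high fat diet. The 19 were picked by the difference of the cosines, which favours peaks that lie apart. Of all 47 genes, called or not, 40 had the control peak and 43 the high fat peak in these windows. The share of all genes with peaks in these windows was not counted. These counts therefore do not show that the timing is particular to the 47 genes. With the 6 time points of a diet as a random block, no cosine was called in either diet or between them. At an unblocked and unadjusted p under 0.05 there were 19, 23 and 34, given without the share of all genes. Without ZT12 the counts were 16, 1 and 0, and without ZT8 they were 1, 13 and 6.

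**Figure D5:**
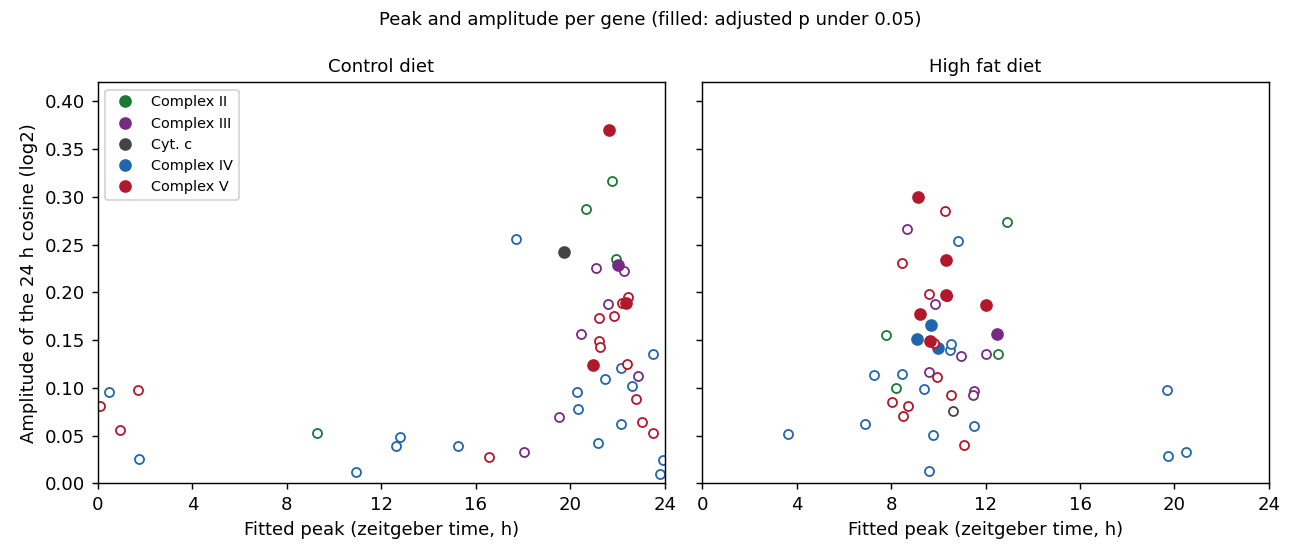
Amplitude of the fitted 24 h cosine (log2) against its peak (zeitgeber time, h) for the 47 genes on the control diet (left) and the high fat diet (right), coloured by complex and filled where the adjusted p is under 0.05. The 5 filled control points lie between 19.7 h and 22.4 h, and the 10 filled high fat points between 9.12 h and 12.5 h.

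Single arrays moved these counts. On the control diet the cosine count was 1 without control ZT8 replicate 2, 3 without control ZT8 replicate 1 or control ZT20 replicate 1, 3 or 4, and 9 without control ZT20 replicate 2. On the high fat diet it was 6 without high fat ZT12 replicate 1 and 17 and 18 without high fat ZT0 replicates 2 and 3. The difference passed for 10 genes without control ZT8 replicate 2 and for 11 without high fat ZT12 replicate 1 or 4. The control count over the 6 times was 18 without control ZT8 replicate 2.

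Other genes of the same machinery were read from lists. Of 32 assembly and maturation factors, 13 were higher and 2 lower on the high fat diet at ZT12, with a median of 0.24 (18% of all genes called, 13.6% higher). Uqcc2, which helps to assemble complex III, rose by 0.97 ± 0.16, Cox14 and Pet100, which act in complex IV assembly, by 0.60 ± 0.11 and 0.79 ± 0.15 (adjusted p = 0.00012, 0.00028 and 0.00072, limma). Ttc19, a factor of complex III, fell by 0.51 ± 0.09 (adjusted p = 0.00032). At ZT8, 4 assembly factors were higher and 1, again Ttc19, was lower (8.34% of all genes called, 5.42% higher).

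Of 15 transcriptional regulators of mitochondrial genes, 2 were higher at ZT12, Esrra by 0.50 ± 0.11 and Esrrb by 0.29 ± 0.06 (adjusted p = 0.0025 and 0.0016, limma), and 0 lower, with a median of 0.06. That is 13.3% of the list, near the 13.6% of all genes called higher. At ZT8 Yy1 alone was called, higher by 0.40 ± 0.12, which is 6.67% of the list against 8.34% of all genes called. Of 11 other mitochondrial genes 6 were higher at ZT12, among them the adenine nucleotide carriers Slc25a4 (0.57 ± 0.11) and Slc25a5 (0.20 ± 0.06) and the import components Timm23 (0.32 ± 0.06) and Tomm20 (0.58 ± 0.12). None of the 6 listed genes of the mitochondrial genome had a named probe set here. Of 35 genes with complex I names 28 were higher at ZT12 and 0 lower, with a median of 0.46, and at ZT8 15 were higher. Of all genes 13.6% were called higher at ZT12 and 5.42% at ZT8.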

How the data were processed

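The submitters' processing notes name RMA, and the deposited values are log2 RMA intensities of 45141 probe sets on 41 arrays. RNA was reverse transcribed and amplified before labelling, per the labels' protocols, which do not state the array software. RMA quantile scaling gives arrays like medians (6.41 to 6.44), so values are relative within an array. Probe sets with 1 gene in the platform annotation (28898) gave 17097 genes, each by its brightest probe set. limma 3.58.1 in R 4.3.3 fitted 12 group means, or a 24 h cosine per diet, with p-values adjusted by Benjamini-Hochberg over all genes at 0.05, intervals of 95%, and the code was tested on simulated data. Members and lists were chosen with earlier results of these data known. Genes were named by rule: the smallest p per complex at ZT12 and ZT8, the smallest p of the time and cosine tests, calls at other times, the smallest difference in complexes IV and V, the c subunit genes and the tissue isoforms. Alternatives were the mean of probe sets, other probe sets, eBayes settings, array weights, 2 centrings, a filter on the dimmest 40%, blocks, and fits without an array or time point. The number of arrays limits precision. Python 3.11.15 and matplotlib 3.10.9 made summaries and figures.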

Additional observations from a re-analysis of the deposited data

Results flagged for a closer look

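In groups of 4 arrays, 9 of 203 groups of the 29 named genes had 1 array far from the other 3, where chance gives about 1 in 20. Atp5b had a low control ZT20 replicate 2 (10.65, the others 10.90 to 10.94) and a high high fat ZT12 replicate 1 (10.99, the others 10.90 to 10.91). Sdhb had the same low control ZT20 replicate 2 (9.38) and a low high fat ZT4 replicate 1 (9.05). Atp5l had a high high fat ZT16 replicate 1 (10.63), Cox4i1 a low high fat ZT4 replicate 4 (11.28) and Cox8a a low high fat ZT16 replicate 4 (9.49). Cox6a2 had a high control ZT0 replicate 3 (7.62) and a low high fat ZT16 replicate 1 (7.49).

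The diet difference varied with time in 35 of the 47 genes, with the smallest adjusted p in Atp5l (1.75e-05), Cycs (5.26e-05), Uqcrb (0.000159), Atp5e (0.000165) and Cox4i1 (0.000361) by limma. It was larger at ZT12 than at the other times in 27 genes and at ZT8 in 13, and the fitted cosines differed between the diets in 19.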

How the results depend on the processing

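Limits first: groups held 2 to 4 arrays, the ZT8 groups 2, and time points were collected on separate days. At ZT12 the count of 31 genes stayed within 24 to 34 under all settings run, with 0 lower in each, and 15 of the 31 were called under every one of them. Sdhd was called under every setting that included it, and the filter on dim genes left it out. The labels do not say whether replicate numbers pair arrays. The mean correlation of deviations was -0.032 for the same number and 0.011 for others. It was -0.065 for the same number and time point between the diets. With groups of 2 to 4 arrays these means cannot settle whether the numbers mark a pairing. With the replicate block, 31 genes were called at ZT12 and 12 at ZT8, and the ZT20 count went from 2 to 1. The cause of the changes below was not tested.

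With array weights the counts were 5 at ZT8, 4 at ZT16, 8 at ZT20, 3 for ZT8 against other times, 1 and 4 for high fat ZT8 and control ZT12 against other times, 3 for the control cosine and 12 for the cosine difference. With the mean of probe sets they were 2 at ZT16 and 5 for the average. With medians of tested genes subtracted they were 5 at ZT20 and 6 for high fat ZT8 against other times, and with medians of all probe sets 5 for the average. Each time point fitted alone gave 0 at ZT8, ZT16 and ZT20. Without ZT8 the counts were 3 at ZT16, 4 at ZT20, 1 for the average, 3 for control ZT12 against other times, 17 for time on the control diet, and 1 and 6 for the control cosine and the cosine difference. Without ZT12 they were 0 for the average, 14 for diet by time, 20 and 8 for ZT8 and high fat ZT8 against other times, 18 for time on the high fat diet, and 16, 1 and 0 for the cosines of control, high fat and their difference. The random block of time point gave 0 for all 3.

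Leaving out 1 array gave 0 to 1 genes at ZT0, 0 at ZT4, 2 to 18 at ZT8, 24 to 32 at ZT12, 0 to 3 at ZT16, 0 to 10 at ZT20, 2 to 7 for the average, 29 to 37 for diet by time, 1 to 18 for ZT8 and 20 to 30 for ZT12 against other times. On the control diet it gave 7 to 21 and 0 to 2 for ZT8 and ZT12 against other times, 18 to 32 for time and 1 to 9 for the cosine. On the high fat diet it gave 0 to 9, 33 to 38, 34 to 39 and 6 to 18, and 10 to 23 for the cosine difference.

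Among differences called in the main fit, other readings of the probe sets reversed 5 genes. Differences that were not called, such as that of Sdha at ZT12, are not part of this count. The mean of probe sets gave Atp5c1 -0.15 at ZT12, -0.13 for ZT12 against other times and 0.16 for control ZT8, Uqcrq -0.032 and -0.026 for the first pair, and Cox5b 0.020 for control ZT8. The second probe set of Atp5c1 gave -0.085 at ZT8, -0.74 at ZT12, -0.65 for ZT12 against other times, 0.68 for control ZT8 and -0.061 for high fat ZT12. For Uqcrq 1 probe set gave -0.92, -0.77 and -0.32 for ZT12, ZT12 against other times and high fat ZT12, and another -0.11 at ZT8 and 0.094 for control ZT8. A dim probe set of Cycs gave -0.042 at ZT12, -0.090 against other times, 0.038 for control ZT8 and -0.038 for high fat ZT12. Cox5b gave 0.51 for control ZT8 and -0.14 for high fat ZT12, and Uqcr10 -0.19 for high fat ZT12.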
